A study of Oryza sativa with 4 samples.

Results

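Acetylation of histone H4 at lysine 5 (H4K5ac) was mapped by ChIP-seq in rice leaves, and the regions described here are those listed in well-watered leaves with no counterpart in drought-stressed leaves. They were chosen by overlap: a peak of the well-watered list on chromosomes 1 to 12 was taken when it had no base in common with any drought-stressed peak. The rule gave 4360 of 28794 well-watered peaks on these chromosomes (15.1%, Wilson 95% interval 14.7% to 15.6%), and the other 24434 are called shared, or retained. The whole well-watered list, with the unplaced sequences Un and Sy, held 28883 peaks. Since the overlap with the drought-stressed list chose the members, their number is a description and no test is attached to it.

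The plants were Hanyou73, a hybrid rice cultivar bred for water saving and drought resistance, sampled at grain filling. Leaves came from plants grown either well watered or under drought stress, with 2 libraries per condition and 4 in all. Whether the libraries of a condition came from separate plants is not stated in the labels. The data are 1 peak list per condition that stands for both of its libraries, so there is no value per replicate, no depth and no test between conditions. Intervals below reflect counting error alone and take peaks as independent of their neighbours. The spread given as SD is that over the 12 chromosomes.

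As background, H4K5ac neutralises a positive charge on the tail of histone H4 and can be bound by bromodomain proteins. In Arabidopsis, the MYST-family acetyltransferases HAM1 and HAM2 acetylate this residue, and histone deacetylases remove the mark. It is found both in transcribed chromatin and, together with acetylation at lysine 12, on newly made H4 before its deposition into nucleosomes. Hyperacetylated H4 usually marks the starts of active genes, but no gene could be given to a peak here because the genome build of the lists is not stated.

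The well-watered-only peaks were short and weakly scored. Their widths ran from 139 to 1391 bp with a median of 222 bp (interquartile range 170 to 315 bp), while shared well-watered peaks had a median of 665 bp (475 to 829 bp). Together they covered 1.18 Mb, which was 6.72% of the covered length of the well-watered list although they made up 15.1% of its peaks. Scores are values the authors gave to each peak, on a scale that is not stated. Its median was 55 in the members (41 to 77) and 519 in the shared peaks (196 to 1009). Shared peaks weighted to the same widths as the members had a median score of 122 (65 to 289), so the members were low in score also for their width.

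Width and score each went with the share of peaks that had no drought-stressed counterpart. Among the shortest peaks, of up to 150 bp, 504 of 683 (73.8%, 70.4% to 76.9%) were well-watered-only. The share was 47.2% (44.8% to 49.5%) for peaks over 200 and up to 250 bp, 24.8% (23.1% to 26.5%) for those over 300 and up to 400 bp, and 0.865% (0.708% to 1.06%) for those over 700 bp. At a score under 50, 80.4% of the peaks of up to 200 bp and 50.0% of the 70 peaks over 500 bp were well-watered-only. At a score of 200 or more, the same shares were 15.0% and 0.121%. A narrow peak of high score was therefore unmatched more often than a broad one of high score: 49 of 327 (11.5% to 19.3%) beside 19 of 15656 (0.0777% to 0.189%). Scores within this open class were not alike, with a median of 355 for narrow and 809 for broad shared peaks. The contrast is thus not one of width at equal score.

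**Figure D1:**
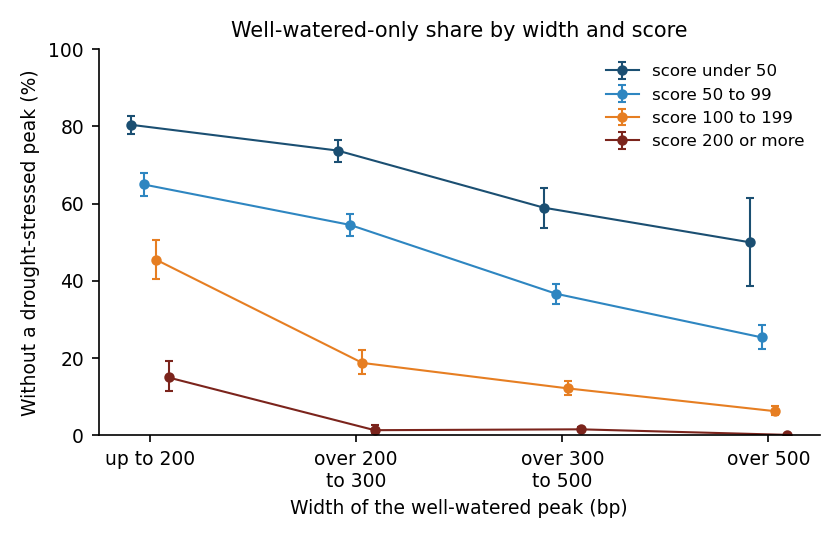
Share of well-watered peaks with no drought-stressed counterpart (y axis, percent) by peak width (x axis, bp), with 1 line per score class; points are shares and bars Wilson 95% intervals. The share goes from 80.4% in the narrowest and lowest-scored class to 0.121% in the widest and highest-scored class.

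Some members stood out from this pattern by their breadth. Of the 4360 members, 345 (7.91%, 7.15% to 8.75%) were at least 500 bp wide and 22 at least 1000 bp. The median score of the members at least 500 bp wide was 84, beside 707 for shared peaks of that breadth. The widest was chr3:1406149-1407539, a peak of 1391 bp with a score of 129, broader than 97.7% of shared peaks and higher in score than 16.5% of them. Its nearest drought-stressed peak lay 2362 bp away. Next came chr4:26577052-26578412, 1361 bp wide with a score of 115, and chr1:36296883-36298137, 1255 bp wide with a score of 176. These regions are given in the coordinates of the lists, written 1-based.

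The other 7 of the 10 widest measured 1193 to 1242 bp. They were chr8:25216749-25217990, chr2:28158931-28160172, chr8:3409359-3410577, chr4:3766347-3767563, chr3:11896650-11897848, chr2:30981135-30982329 and chr1:23456377-23457569. Their scores ran from 73 to 141, except for 313 at the first of them, which was above 35.6% of shared scores. Only the 1242 bp peak on chromosome 2, with a score of 94, had a drought-stressed peak within 1 kb, at 434 bp. The one on chromosome 4 was the most remote of the 10, 24241 bp from the nearest drought-stressed peak and with 27 retained peaks per Mb around it.

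Distance to the drought-stressed peaks varied widely. The median gap from a member to the nearest drought-stressed peak was 4009 bp, and 1031 of 4360 members (23.6%, 22.4% to 24.9%) lay within 1 kb of one. For 343 members (7.87%) the nearest drought-stressed peak was itself found under drought alone, and for 146 (3.35%) such a peak was both the nearest and within 1 kb. A drought-stressed-only peak lay within 1 kb of 3.51% of members, beside 2.62% of shared peaks of the same widths. These shares are not on equal terms. A shared peak overlaps a drought-stressed peak, and drought-stressed peaks lay at least 146 bp apart, which limits how close another can come. For 50 members (1.15%) a drought-stressed-only peak was the nearest and within 150 bp. No excess is read from this comparison.

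The members at the edge of the rule had a drought-stressed peak directly beside them. The 5 nearest lay 3 to 9 bp from one. At chr3:6933196-6933453, 258 bp wide with a score of 123, the drought-stressed peak ended 3 bp before it, and at chr3:28061280-28061497, 218 bp wide with a score of 42, one began 3 bp after it. The next were chr7:10716446-10717017 and chr7:28495337-28495553, each at 7 bp, and chr1:34356512-34356813 at 9 bp. In 4 of these 5 places the adjoining drought-stressed peak met no well-watered peak. Just inside the shared class were chr3:29119866-29120066 and chr7:46261-46466, each with 1 bp of overlap, then chr9:10845864-10846204 with 2, chr2:29725893-29726303 with 3 and chr7:18919863-18920025 with 4 bp. Scores of these 5 shared peaks ran from 30 to 71, and those of the 5 nearest members from 36 to 123.

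The members farthest from drought-stressed acetylation lay 88513 to 99195 bp from the nearest peak of that list. The most remote was chr4:1434673-1435203, 531 bp wide with a score of 249, at the upper end of this range. Next came chr12:5992059-5992204, chr12:16809616-16809767 and chr8:1430299-1430437, which were 139 to 152 bp wide with scores of 86 to 128. The last, chr6:8510234-8510451, measured 218 bp, had a score of 65, and its nearest drought-stressed peak met no well-watered peak.

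The next comparison placed the members relative to the retained regions. Well-watered-only peaks lay farther from retained peaks than shared peaks of the same width did. The median gap to the nearest retained peak was 4456 bp for members and 3276 bp for shared peaks weighted to the members' widths, and 21.2% of members beside 27.1% of those shared peaks had one within 1 kb. The share within 1 kb was lower for members on 12 of 12 chromosomes. The difference was -6.28 ± 4.58 percentage points (mean ± SD, n = 12 chromosomes), running from -17.7 on chromosome 10 to -0.01 on chromosome 1. Part of this difference rested on shared peaks that met 1 drought-stressed peak together. There were 298 shared peaks, each within 1 kb of another, of this kind. With these left out, the share of shared peaks within 1 kb was 23.9% and members were lower on 8 of 12 chromosomes. This check was added after the data were seen. The distance is also not separate from the adjacency of members described below. Where a neighbouring peak is well-watered-only, the nearest retained peak can lie further off. Such a neighbour was present for 36.4% of members and 27.6% of width-weighted shared peaks. How much of the difference in distance goes with this was not tested.

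**Figure D2:**
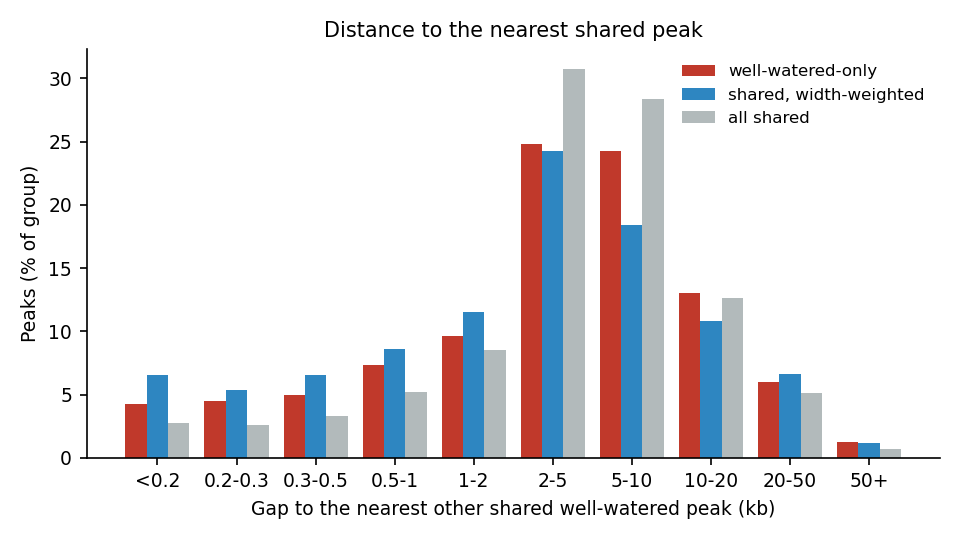
Gap from a peak to the nearest other shared well-watered peak (x axis, kb) and the percent of each group in each gap class (y axis), for well-watered-only peaks, shared peaks weighted to their widths, and all shared peaks. The weighted shared peaks exceed the members in every class up to 2 kb, and 24.2% of members beside 18.4% of weighted shared peaks lie 5 to 10 kb away.

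Unweighted, the order was the other way round, since short peaks of either kind crowd near others. Among all shared peaks, 13.9% had another retained peak within 1 kb. No well-watered peak lay less than 140 bp from the next, so neither members nor shared peaks could be closer than that. The gap distributions converged at their far end, where 5% of members lay more than 24414 bp, and 5% of width-weighted shared peaks more than 26063 bp, from a retained peak.

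The contrast differed between width classes. Of the peaks over 300 and up to 500 bp that lay 5 to 20 kb from another retained peak, 352 of 1399 (25.2%, 23.0% to 27.5%) were well-watered-only. Of those closer than 300 bp, 53 of 411 were (12.9%, 10.0% to 16.5%), or 16.4% without the shared peaks that met a drought-stressed peak jointly. From 1 to 5 kb the share was 15.2% (13.7% to 16.8%). Widths and scores would have given 21.3% at 5 to 20 kb, 15.9% at 1 to 5 kb and 19.9% closer than 300 bp. Without the jointly met peaks the last value was 17.5%, and the observed number was 0.934 times that. For peaks of up to 200 bp, 55.4% closer than 300 bp and 67.0% at 5 to 20 kb were well-watered-only. Beyond 20 kb the share was 57.6% (51.5% to 63.5%). Without the jointly met peaks the value closer than 300 bp was also 67.0%, while that from 300 bp to 1 kb was 57.7% (52.8% to 62.4%). For peaks of up to 200 bp, widths and scores would have given 62.9% closer than 300 bp and 65.1% at 5 to 20 kb. Peaks over 200 and up to 300 bp went from 36.7% (31.6% to 42.0%) closer than 300 bp, or 44.8% without the jointly met peaks, to 50.3% (47.3% to 53.4%) at 5 to 20 kb. Widths and scores would have given 43.1% closer than 300 bp, or 42.2% without the jointly met peaks, and 48.7% at 5 to 20 kb. In peaks over 500 bp the raw share ran the other way, from 2.81% (1.76% to 4.46%) closer than 300 bp and 2.92% (2.08% to 4.10%) from there to 1 kb, to 1.83% (1.56% to 2.14%) at 5 to 20 kb. Their widths and scores would have given 4.71%, 3.08% and 1.57%, so the observed number was 0.598, 0.949 and 1.16 times that. Without the jointly met peaks the first of these ratios was 0.693. Beyond 20 kb the share was 2.24%, beside 1.65% from widths and scores. The raw order in this broad class is therefore not set apart from width and score. In the narrower classes, part of the raw rise between those closer than 300 bp and those at 5 to 20 kb also went with them.

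**Figure D3:**
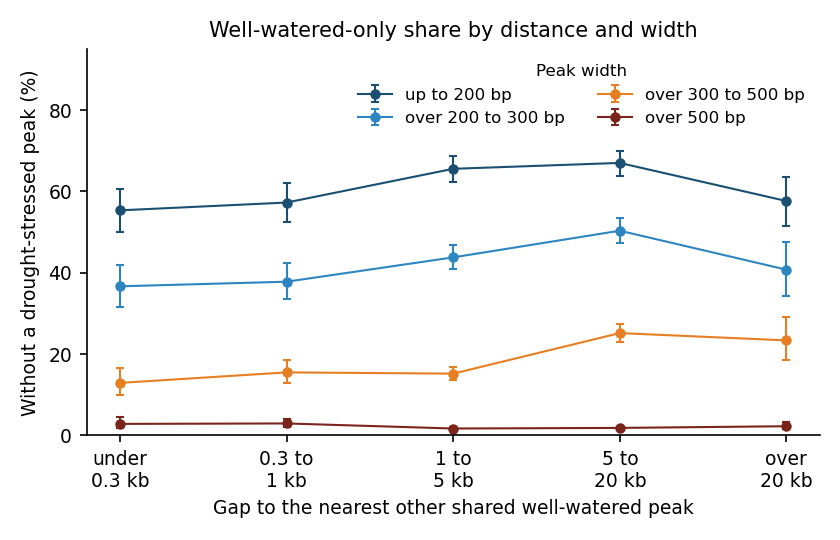
Share of well-watered peaks with no drought-stressed counterpart (y axis, percent) by the gap to the nearest other shared well-watered peak (x axis), with 1 line per width class; bars are Wilson 95% intervals. For peaks over 300 and up to 500 bp the share is 12.9% closer than 300 bp and 25.2% at 5 to 20 kb. Their widths and scores would give 19.9% and 21.3%, which are not drawn.

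Members were found next to each other more often than their widths account for. A neighbouring well-watered peak was also well-watered-only for 36.4% of members and for 27.6% of width-weighted shared peaks. The difference was positive on 12 of 12 chromosomes, at 8.48 ± 4.27 percentage points (mean ± SD, n = 12 chromosomes; lowest 3.07 on chromosome 6, highest 15.3 on chromosome 1). With a peak's own score matched as well as its width, the shared value was 28.0% and the difference was again positive on all 12.

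The excess varied with the gap between neighbours and was largest, in percentage points, below 500 bp. When the next well-watered peak was less than 500 bp away, it was well-watered-only after 181 of 484 members (37.4%, 33.2% to 41.8%), beside 17.5% after width-weighted shared peaks and 19.4% after shared peaks weighted for width and score. These shared values include the peaks that met a drought-stressed peak jointly, whose joint neighbour is shared by definition. Over all gaps, leaving those out put the width-weighted share with a member on either side at 28.1%. No such value is given for gaps below 500 bp, so how far these peaks lowered the shared values there was not tested. From 500 bp to 1 kb the values were 35.2% (29.7% to 41.2%), 20.2% and 28.8%, so the excess was smaller with score weighted. At 1 to 5 kb the values were 19.8% (17.6% to 22.2%), 16.5% and 18.2%. At 5 to 20 kb, the class with the most members (1749), they were 15.6% (14.0% to 17.4%), 11.7% and 10.95%, so the excess was also present there. Beyond 20 kb they were 16.8% (14.2% to 19.7%), 15.6% and 14.6%. The width of the next peak did not remove the difference: next peaks over 300 and up to 500 bp were well-watered-only after 25.8% of members (22.8% to 29.05%) and after 16.7% of shared peaks under either weighting. Peaks over 500 bp wide were so after 3.13% of members (2.52% to 3.87%) and 1.46% of width-weighted shared peaks.

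**Figure D4:**
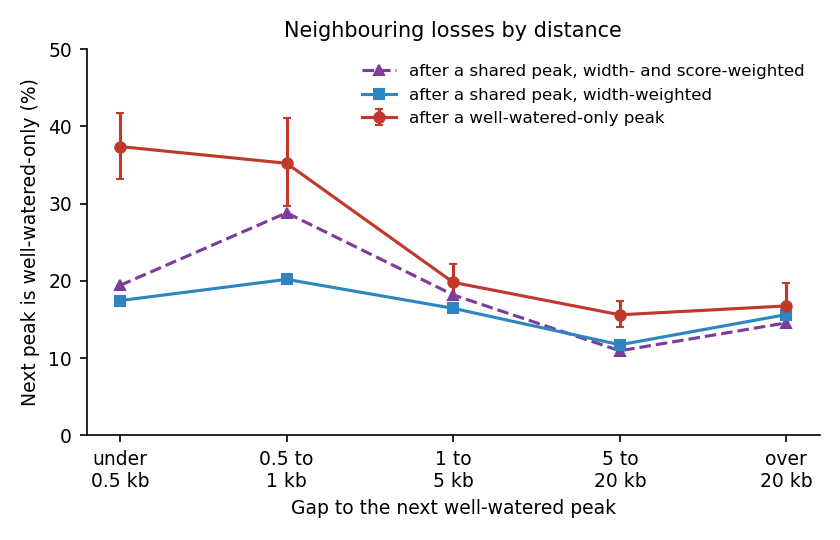
Share of cases in which the next well-watered peak is well-watered-only (y axis, percent) by the gap to it (x axis), after a well-watered-only peak (Wilson 95% intervals), after shared peaks weighted for width, and after shared peaks weighted for width and score. Below 500 bp the 3 values are 37.4%, 17.5% and 19.4%.

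Consecutive members formed 3466 runs, a run ending at the next retained peak. Most were single: 2771 members (63.6%) had a retained peak on either side or a chromosome end. There were 550 runs of 2, 106 of 3, 27 of 4, 9 of 5 and 3 of 6 peaks. The 695 runs of 2 or more held 1589 members, and 322 of these runs spanned less than 5 kb (median span 6073 bp).

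The 3 runs of 6 and the 2 shortest of the 9 runs of 5, ties being ordered by span, differed in layout. The run of 6 on chromosome 11, chr11:27290465-27314321, spread peaks of 151 to 315 bp and scores of 25 to 64 over 23.9 kb, with 2 drought-stressed-only peaks between them. That on chromosome 5, chr5:19531678-19583950, held 6 peaks of 182 to 327 bp with no drought-stressed peak in its 52.3 kb. The run of 6 on chromosome 9, chr9:7594861-7789378, covered 194.5 kb of sparse sequence, with 27 retained peaks per Mb around it, 149931 bp without a well-watered peak to its left, and 1 drought-stressed peak inside, which met no well-watered peak. One of its peaks, chr9:7776307-7776977, measured 671 bp and had a score of 204. It is in the 1 Mb window with the highest share, 17 of 45 peaks (37.8%, 25.1% to 52.4%), where widths and scores would have given 25.4%.

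Of the runs of 5, the one with the shortest span was chr2:5530232-5536938 on chromosome 2, 6.71 kb long. Its first 4 peaks, 148 to 218 bp wide with scores of 34 to 52, lay between 5530232 and 5532075, and the nearest retained peaks, with scores of 632 and 853, were 5566 and 14473 bp away from the run. The run of 5 on chromosome 3, chr3:35238250-35248478, was of broader peaks, 292 to 742 bp wide with scores of 42 to 145, in a region of 116 retained peaks per Mb. No drought-stressed peak lay in either run.

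Position along the chromosome differed little between members and shared peaks. Each chromosome, taken to end at the last peak of either list, was cut into 10 bins of equal length. The share of well-watered-only peaks ran from 13.8% (12.7% to 15.0%) in bin 1 to 16.5% (15.3% to 17.8%) in bin 8. Peak widths alone would have given 17.6%, 18.1% and 17.2% in bins 3, 4 and 5, where 15.6%, 16.4% and 15.1% were observed. Widths and scores together gave 15.5%, 16.0% and 14.9% there. Over the 10 bins the observed number was 0.959 to 1.045 times that from width and score. The outer 2 bins at both ends held 46.7% of members, 44.1% of width-weighted shared peaks and 48.2% of those weighted for width and score. The chromosomes did not share a direction: the difference from width-weighted peaks was 3.89 ± 8.50 percentage points (mean ± SD, n = 12) and positive on 8 of 12.

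**Figure D5:**
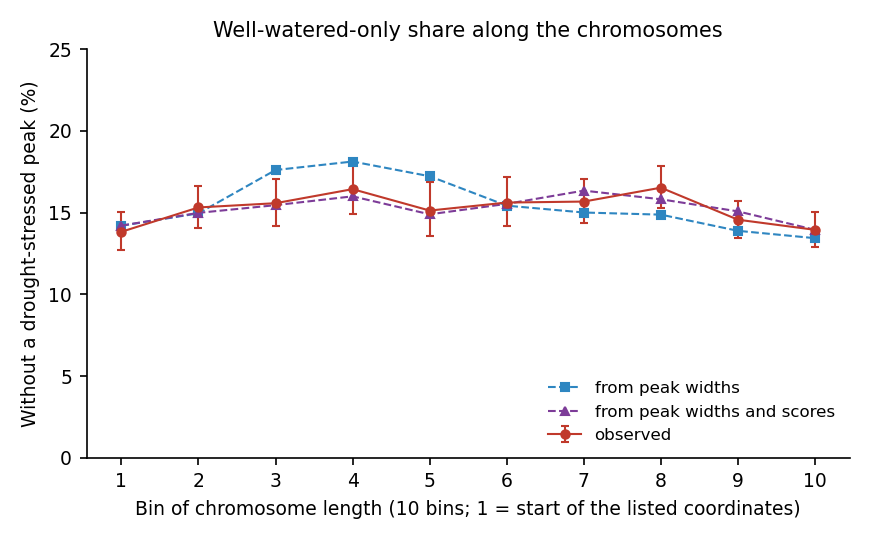
Share of well-watered peaks with no drought-stressed counterpart (y axis, percent) by bin of chromosome length (x axis, 10 bins of equal length), observed with Wilson 95% intervals and as peak widths, or widths and scores, would give it. The observed share runs from 13.8% to 16.5%, and bins 3 to 5 lie below the values from widths alone and near those from widths and scores.

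Over all widths, the share of well-watered-only peaks differed little with the density of retained acetylation, but within the narrower width classes it was lower in the sparsest regions. The median density within 500 kb of a peak was 76 retained peaks per Mb for members, 70 for width-weighted shared peaks and 74.8 for those weighted for width and score. Within chromosomes the difference from width-weighted peaks was 2.42 ± 4.03 peaks per Mb (mean ± SD, n = 12), positive on 7 and negative on 3. With score weighted as well it was positive on 3 and negative on 6, so the direction was not shared. Cut into 5 classes of density, the list had 15.9% well-watered-only peaks (14.9% to 16.8%) in the sparsest and 14.2% (13.3% to 15.2%) in the densest. In the sparsest class widths alone gave 17.8%, and widths and scores 15.6%. Among peaks over 200 and up to 300 bp, 36.3% (32.8% to 39.9%) were well-watered-only in the sparsest class and 49.7% (45.6% to 53.9%) in the densest. Among those of up to 200 bp the shares were 56.3% (52.8% to 59.8%) and 64.8% (60.3% to 68.9%), with the highest, 68.7%, in the middle class. Widths and scores together gave 36.6% and 49.03% for the first pair of shares and 56.6% and 67.5% for the second. Narrow shared peaks of high score stood apart: the 278 of up to 200 bp with a score of 200 or more had a median density of 54.5, beside 76 for the 223 with a score under 50, and 27.7% beside 48.0% lay in those outer bins. The 49 members of that narrow, high-scored class were alike, with a median density of 48.7 and 30.6% in the outer bins.

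Among chromosomes, the share ran from 13.4% (11.8% to 15.1%) on chromosome 12 to 16.5% (15.4% to 17.7%) on chromosome 1. Relative to their widths, members were fewest on chromosome 10, at 0.831 times the number from widths, and most frequent on chromosome 1, at 1.15 times. With score included, the 12 ratios lay between 0.938 and 1.05. Members occurred in 377 of 379 windows of 1 Mb, with a median of 11 per window (interquartile range 7 to 15). The most, 32 of 133 peaks (24.1%, 17.6% to 32.0%), were on chromosome 1 from 28 to 29 Mb, where widths and scores would have given 20.9%. Chromosome 12 from 8 to 9 Mb had 0 of 25 (0 to 13.3%), the lowest among the 376 windows with at least 20 peaks. Widths and scores would have given only 3.24% there, so no depletion is read from it.

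The retained regions around the members were also compared, since their width change under drought was not part of the rule. The nearest 1-to-1 pair, a well-watered and a drought-stressed peak that overlap each other and nothing else, was narrower under drought by a median of 54 bp beside members and 37 bp beside width-weighted shared peaks. This difference was present on 12 of 12 chromosomes (-16.2 ± 8.23 bp, mean ± SD, n = 12). It depended on score: beside shared peaks weighted for width and score the median change was -52 bp, and the difference was negative on 7 of 12 chromosomes. Over all 23644 pairs the median change was -53 bp. The edge of the pair that faced a member lay 20 bp further in under drought, and so did the far edge (medians). For pairs closer than 300 bp to a member, the facing edge moved in by 16 bp and the far edge by 19 bp. Beside shared peaks weighted for width and score, the facing and far edges moved in by 24 and 17 bp at that distance. Over all distances they moved by 18 and 22 bp, so the inward shift was not particular to pairs beside members.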

How the data were processed

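The deposited files are 2 peak lists, 1 per condition, each named in the labels of both libraries of that condition. Per the labels' protocols, leaf chromatin was formaldehyde-crosslinked and sonicated. Per the submitters' processing notes, BWA, SAMtools, MACS2 and deepTools were used. Not given in the sources used here are the build, the control library and the threshold. The authors deposited start and end positions (other values, bp) and a score per peak with no stated scale. Scores were used only to rank, filter or weight peaks within the well-watered list.

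Overlaps of at least 1 bp were found with Python 3.11.15, numpy 2.4.6, pandas 2.3.3 and scipy 1.17.1, and the count was checked with bedtools 2.31.1. Shared peaks were weighted to the members' widths in 10 bp bins, or to 50 bp bins and score deciles. Values "from widths" apply the list's share in each bin. Scripts were tested on simulated data. Regions were named by rule: the 10 widest members, 5 longest runs (ties by shortest span), 5 farthest and 5 nearest to a drought-stressed peak, 5 shared peaks of smallest overlap, and extreme 1 Mb windows. Single members of a run were added after their values were seen. The members, classes and comparisons were chosen with earlier results of these data known. Genes and sequences were not used here.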

Additional observations from a re-analysis of the deposited data

Results flagged for a closer look

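The unplaced sequences Un and Sy, which were outside the comparisons above, held 12 well-watered-only peaks among 89 (13.5%, Wilson 95% interval 7.88% to 22.1%). They were singled out as signal in data outside the main measurement.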

How the results depend on the processing

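The count of 4360 became 24 among peaks above the median score and 2367 with the well-watered list cut to the length of the other; 4 other definitions gave 3329 to 5393. The differences between members and shared peaks depended on the weights. With no weights, the difference in the share within 1 kb turned to 7.30 percentage points, that in the outer bins to -2.94, the density difference became 0 and that of the nearest pair -3 bp. With weights for width and score, they were 1.23 peaks per Mb, -2 bp and, in the outer bins, -1.53 points, so position, density and the width change of neighbours are not set apart from score. With gaps of up to 1 kb counted as shared, the difference in the share within 1 kb was -40.5 points, by construction. That for neighbouring members was 18.0 points, with 36.1% of members beside 18.1% of shared peaks. It too is partly built in, since close neighbours are often within 1 kb of the same drought-stressed peak. Density within 100 kb differed by 0. Leaving out shared peaks that met a drought-stressed peak jointly, an alternative chosen after seeing the data, moved the difference within 1 kb from -5.96 to -2.73 points. The excess of neighbouring members was positive in each alternative run, lowest at 4.74 points without the lowest score decile. Un and Sy were left out. No paired analysis was possible because the lists hold no values per replicate, which also prevents leaving a replicate out. The depth behind the low-scored peaks is unknown.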
